A study of Danio rerio with 13 samples.

Results

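Ionocytes are the salt- and acid-handling cells of fish skin and gill. The genes described here are 7 of the 32105 in the deposited count table: the forkhead factors foxi3a and foxi3b, the regulator gcm2, the calcium channel trpv6, the ammonia channel rhcg and the carbonic anhydrases ca15a and ca2. They were taken by gene symbol, and rhcg is the row ENSDARG00000003203. The set was chosen by differences between HOM and WT skin seen in an earlier account of these libraries, so every HOM against WT value is a description and carries no test.

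The libraries came from skin of male zebrafish of the AB strain at 3 months of age, and differed in tert, the gene of the telomerase catalytic subunit. HOM fish (tert−/−, n = 3) carried 2 copies of the hu3430 nonsense allele, HET fish (tert+/−, n = 5) carried 1 copy with a wild-type copy, and WT fish (n = 5) carried none. The allele was inherited, so it was not confined to skin. Polyadenylated RNA was sequenced without strand information. The labels do not tie the libraries to individual fish, so a p-value covers only the spread among these libraries, part of which may be technical.

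In zebrafish, foxi3a and foxi3b commit epidermal progenitors to the ionocyte fate, with Notch signalling limiting how many cells take it. Their descendants include H+-ATPase-rich (HR) cells, which secrete acid and depend on gcm2, and Na+/K+-ATPase-rich (NaR) cells, which take up calcium through trpv6. HR cells carry the ammonia channel rhcg on the apical membrane, the membrane-bound carbonic anhydrase ca15a facing the water and the cytosolic carbonic anhydrase ca2. Ionocytes lie scattered over the skin in larvae and mainly in the gills in adults. In whole skin, fewer ionocytes and less RNA per ionocyte cannot be told apart.

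Library totals ran between 15709310 and 30249877 counts, and the mitochondrially encoded genes took 19.9 to 56.4% of them. The highest and the lowest share were both in HOM libraries. Levels are given in CPM, counts relative to a library total scaled by the trimmed mean of M-values (TMM), whose factors ran between 0.769 and 1.43. Genes of liver ran between 34.4 and 500.7 CPM summed over 10 genes in HOM, between 157.4 and 518.7 CPM in HET and between 62.5 and 31002 CPM in WT skin. Every marker of keratinocytes, the main cell of the epidermis, was detected in all 13 libraries. No pair of libraries of 1 genotype agreed within sampling noise.

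Per length, ca2 was the only member at a middling level. Its mean over the 13 libraries was 8.08 ± 6.10 RPKM (counts scaled by gene length and library total, SD), which placed it above 78.6% of the genes tested. rhcg followed at 1.26 ± 2.17 RPKM, above 34.7% of them. The other 5 had means of 0.271 ± 0.152 RPKM (trpv6), 0.255 ± 0.306 RPKM (ca15a), 0.246 ± 0.153 RPKM (foxi3b), 0.174 ± 0.195 RPKM (gcm2) and 0.125 ± 0.0771 RPKM (foxi3a). Neighbours among these 5 lay within their SD of each other, and all of them were above fewer than 10% of the genes tested.

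**Figure D1:**
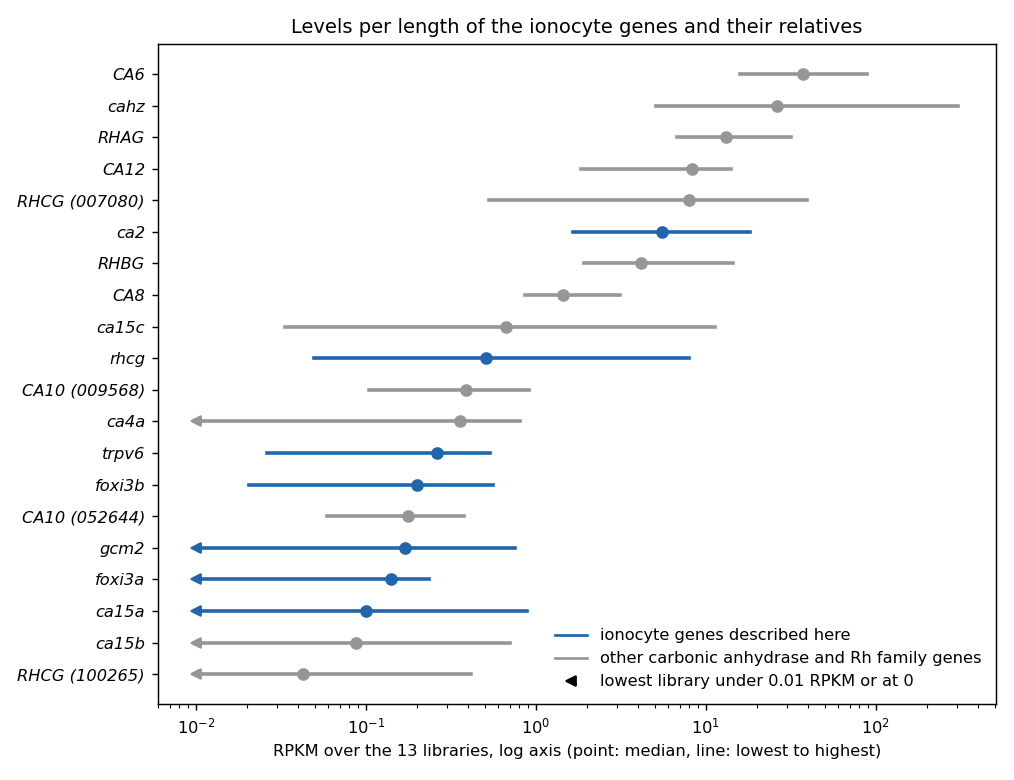
Levels per length of the 7 ionocyte genes (blue) and of other carbonic anhydrase and Rh family genes (grey) in RPKM on a log axis, with the median as a point and the lowest to highest of the 13 libraries as a line. ca2 lay among the better expressed relatives, and the other ionocyte genes lay in the lower part of the plot.

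Several relatives had higher mean levels per length than any of the 7, with a wide spread. The carbonic anhydrases CA6, a secreted enzyme, and cahz, the enzyme of red blood cells, averaged 41.9 ± 19.1 and 47.9 ± 81.3 RPKM. A second gene annotated RHCG (ENSDARG00000007080) averaged 10.8 ± 11.02 RPKM. It had 54.7, 1.34 and 34.2 CPM in the HOM libraries, 29.9, 7.47, 11.5, 9.79 and 16.6 CPM in the HET libraries and 36.4, 17.0, 23.9, 1.68 and 2.59 CPM in the WT libraries, with groups that overlapped. Its means were 30.1 ± 26.9, 15.1 ± 8.96 and 16.3 ± 14.7 CPM (SD, n = 3, 5 and 5). As for rhcg, described next, the mean was highest in HOM skin and HOM replicate 1 was the highest library. Unlike for rhcg, HOM replicate 2 was the lowest library of all. A further gene annotated RHCG (ENSDARG00000100265) had 0.116, 1.34 and 0 CPM in the HOM libraries. It reached 0.178 CPM in HET and 0.272 CPM in WT skin. HOM replicate 2 held 27 of its 59 counts. Reads of near-identical copies could have been split between them in counting, which was not tested.

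rhcg, through which HR cells release ammonia, had its highest levels in HOM skin. The HOM libraries had 12.2, 8.56 and 1.74 CPM, the HET libraries 0.833, 0.121, 0.849, 2.16 and 1.46 CPM, and the WT libraries 0.875, 1.51, 0.812, 0.871 and 0.259 CPM. Means were 7.50 ± 5.31, 1.09 ± 0.767 and 0.866 ± 0.444 CPM (SD, n = 3, 5 and 5), from 525, 173 and 21 counts in the HOM libraries and 2 to 63 counts elsewhere. Every HOM library was above every WT library, as for 0.439% of the 19141 genes tested. In CPM without TMM scaling the groups overlapped, with 1.34 CPM in the lowest HOM library and 1.87 CPM in the highest WT library. Fitted on the log2 scale, HOM against WT stood at 3.12 ± 0.73 (SE) and HOM against HET at 2.77 ± 0.73. HOM replicate 1, the library with the highest value, also had the lowest mitochondrial share (19.9%) and the highest TMM factor (1.43) of the 13, and their part in the result was not tested.

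ca15a, the carbonic anhydrase on the outer face of the HR cell, followed the same order of genotypes. It had 0.977, 1.88 and 0.579 CPM in HOM skin, 0, 0, 0.980, 0.137 and 0.563 CPM in HET skin and 0.0302, 0.327, 0.141, 0.0581 and 0.0740 CPM in WT skin. Means were 1.15 ± 0.666, 0.336 ± 0.427 and 0.126 ± 0.119 CPM (SD, n = 3, 5 and 5). The HOM libraries lay above every WT library with and without TMM scaling. Without scaling this was so for 0.104% of the genes tested. Counts were few, at 42, 38 and 7 in HOM libraries and 1 to 8 in WT libraries, and the 2 HET libraries with 0 counts allow up to 0.178 and 0.182 CPM. The fitted log2 difference of HOM against WT was 3.15 ± 1.05, or 3.87 without WT replicate 2, and that of HOM against HET was 1.78 ± 1.0.

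ca2, the cytosolic carbonic anhydrase, did not share that order. It had 10.4, 2.18 and 2.23 CPM in HOM skin, 5.41, 14.7, 6.47, 3.98 and 1.95 CPM in HET skin and 14.9, 9.48, 15.9, 6.97 and 4.96 CPM in WT skin. Its means of 4.93 ± 4.71, 6.51 ± 4.91 and 10.4 ± 4.82 CPM were lowest in HOM and highest in WT, with groups that overlapped. The log2 fold change was −1.07 ± 0.69 for HOM against WT, and −2.22 ± 0.76 without HOM replicate 1, the one HOM library in the WT range.

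**Figure D2:**
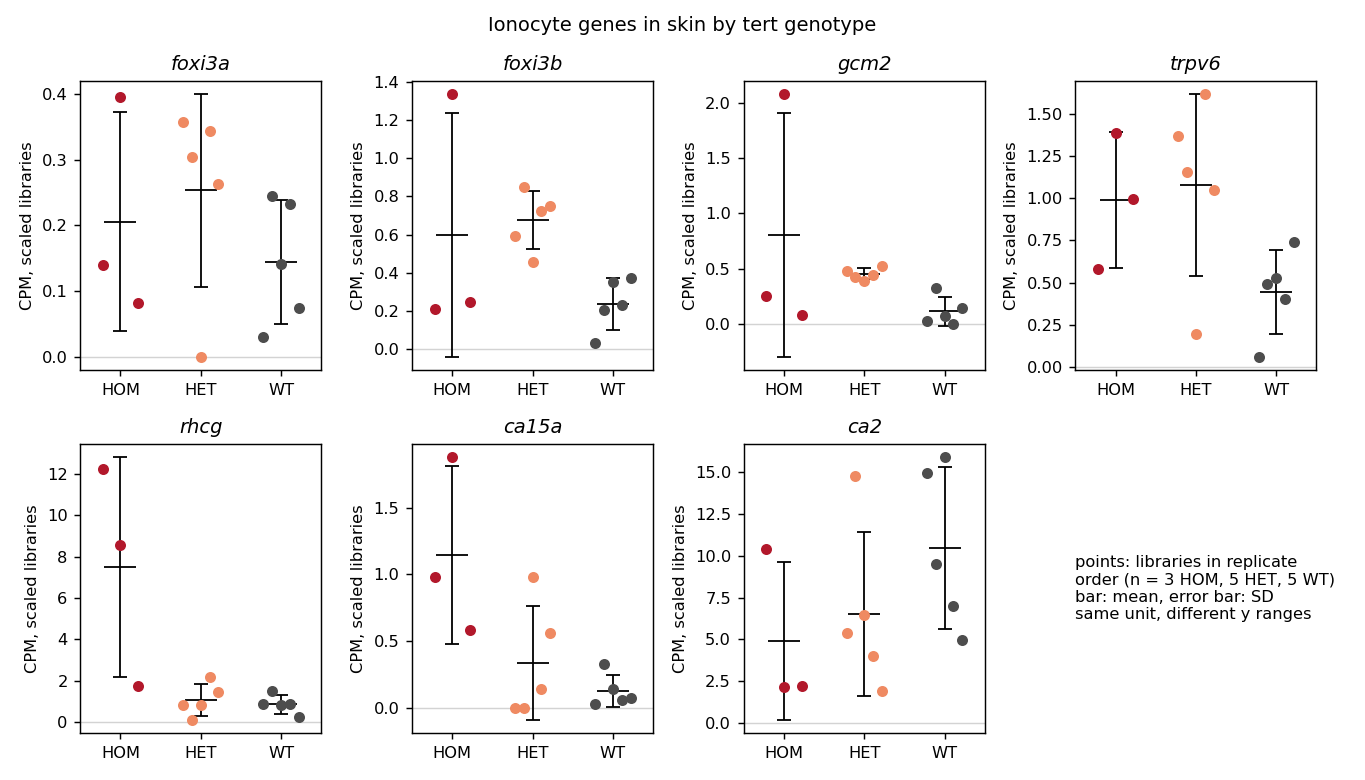
CPM of the 7 ionocyte genes in each library, by genotype from left to right HOM, HET and WT, with the mean as a bar and the SD as the error bar (n = 3, 5 and 5) and y ranges that differ between genes. rhcg and ca15a had their highest means in HOM skin and ca2 in WT skin, and foxi3b and gcm2 were higher in every HET than in every WT library, though not in CPM without TMM scaling.

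Of the 3 regulators, gcm2 and foxi3b gave another pattern, in which the HET libraries stood together, and foxi3a shared it only in part. gcm2, which directs progenitors to the HR cell, had 0.256, 2.08 and 0.0828 CPM in HOM skin, 0.476, 0.425, 0.392, 0.447 and 0.525 CPM in HET skin and 0.0302, 0.327, 0.0706, 0 and 0.148 CPM in WT skin. With TMM scaling all 5 HET libraries were above all 5 WT libraries, with means of 0.453 ± 0.0507 and 0.115 ± 0.131 CPM (SD, n = 5 each). HOM replicate 2 alone raised the HOM mean to 0.805 ± 1.11 CPM, from 42 counts against 11 and 1 in the other HOM libraries. The HOM against WT log2 fold change was 2.75 ± 0.92, fell to 0.67 without HOM replicate 2, and was 3.59 without WT replicate 2. Against HET skin it was 0.83 ± 0.87, and −1.25 without HOM replicate 2.

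foxi3b, which acts in ionocyte progenitors, had the arrangement of gcm2. It had 0.209, 1.34 and 0.248 CPM in HOM skin, 0.595, 0.850, 0.457, 0.721 and 0.750 CPM in HET skin and 0.0302, 0.204, 0.353, 0.232 and 0.370 CPM in WT skin. With TMM scaling the HET libraries were again all above the WT libraries, with means of 0.675 ± 0.152 and 0.238 ± 0.137 CPM (SD, n = 5 each). HOM replicate 2 was the highest library of all for foxi3b as for gcm2, and the other HOM libraries lay in the WT range. The HOM against WT log2 fold change of 1.32 ± 0.69 became −0.07 without HOM replicate 2, and the HOM against HET value of −0.18 ± 0.69 became −1.57.

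foxi3a, the partner of foxi3b, was the least abundant member and did not pass the count filter of the test. It had 0.140, 0.396 and 0.0828 CPM in HOM skin, 0.357, 0.303, 0, 0.343 and 0.263 CPM in HET skin and 0.0302, 0.245, 0.141, 0.232 and 0.0740 CPM in WT skin. The genotype ranges overlapped, with means of 0.206 ± 0.167, 0.253 ± 0.146 and 0.145 ± 0.0947 CPM (SD, n = 3, 5 and 5). With TMM scaling 4 of the 5 HET libraries were above every WT library, the exception being HET replicate 3 with 0 counts. Without it WT replicate 2 (0.303 CPM) was also above HET replicates 2 and 5 (0.269 and 0.250 CPM). A fit without the filter, chosen after seeing the data, gave 0.56 ± 0.84 for HOM against WT on the log2 scale.

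trpv6, the calcium channel of NaR cells, had its lowest mean in WT skin. It had 0.581, 1.38 and 0.993 CPM in HOM skin, 1.37, 1.15, 0.196, 1.61 and 1.05 CPM in HET skin and 0.0604, 0.490, 0.529, 0.406 and 0.740 CPM in WT skin. In 4 of the 5 HET libraries it was above every WT library, HET replicate 3 being the exception with 3 counts. Means were 0.986 ± 0.402, 1.08 ± 0.538 and 0.445 ± 0.248 CPM (SD, n = 3, 5 and 5). On the log2 scale HOM against WT was 1.13 ± 0.67 and HOM against HET −0.15 ± 0.67. The second turned to 0.19 without HOM replicate 1 and 0.049 without HET replicate 4. The HOM libraries lay above every WT library only in CPM without TMM scaling, as for 0.104% of the 19141 genes tested.

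The HET against WT comparison asked whether loss of 1 tert copy changed these genes. It shares its WT libraries with the comparison that chose them. None of the 6 members tested passed an adjusted p of 0.05 in edgeR's quasi-likelihood test, where 0% of the 19141 genes was called and 1052 genes had an unadjusted p under 0.05. The log2 fold changes were 1.92 ± 0.85 for gcm2 (adjusted p = 0.889), 1.50 ± 0.62 for foxi3b (adjusted p = 0.834) and 1.28 ± 0.59 for trpv6 (adjusted p = 0.913). They were 1.37 ± 0.99 for ca15a, 0.35 ± 0.66 for rhcg and −0.69 ± 0.58 for ca2, each with an adjusted p of 0.978. DESeq2 called 138 of 17288 genes (0.798%) and no member, and the smallest adjusted p of any member over all alternatives was 0.548, for trpv6. gcm2, ca15a and foxi3b entered the test mainly through the libraries where they were high: 0 WT libraries reached the filter level of 0.415 CPM without TMM scaling for gcm2 and ca15a and 1 did for foxi3b, so their HET against WT values cannot be read free of that filter. In the fit without the filter gcm2 was 1.92 ± 0.84 (adjusted p = 0.885) and foxi3b 1.49 ± 0.62 (adjusted p = 0.883). For foxi3a that fit gave 0.86 ± 0.73 (adjusted p = 0.885).

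**Figure D3:**
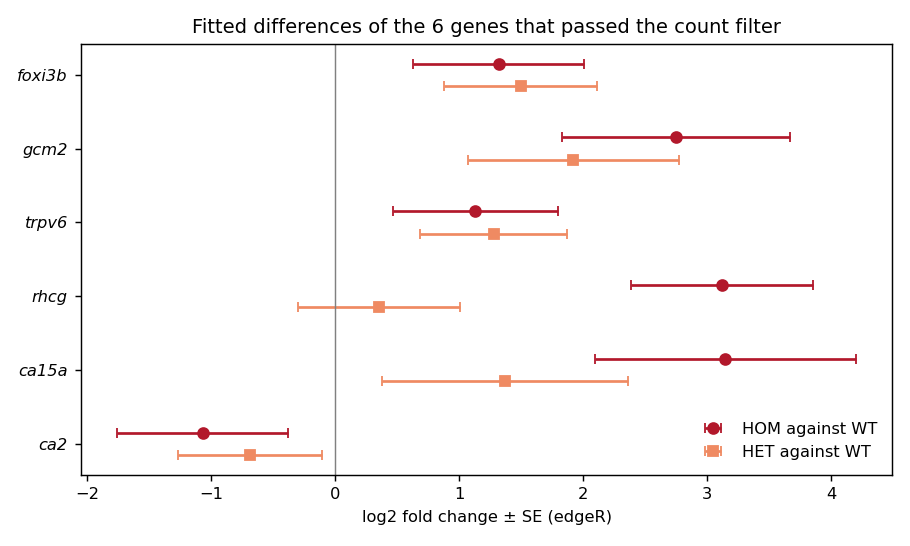
Log2 fold changes of the 6 ionocyte genes that passed the count filter, with their standard errors, for HOM against WT (circles) and HET against WT (squares). rhcg was the gene whose 2 values lay farthest apart, at 3.12 and 0.35, and ca2 was below 0 in both.

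The regulators gcm2 and foxi3b were the 2 members with every HET library above every WT library, as for 0.366% of the genes tested. In CPM without TMM scaling neither was, against 0.0627% of the genes tested. WT replicate 2 then had 0.404 CPM of gcm2, above the lowest HET library at 0.318 CPM, and the highest WT library had 0.415 CPM of foxi3b, above the lowest HET library at 0.371 CPM. Leaving out TMM scaling moved the median log2 fold change of all genes by −0.25 in HET against WT and by −0.16 in HOM against WT.

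Marker lists of other cell types were summed in the same libraries, and edgeR called none of their genes in any comparison. DESeq2 called 6 of the 10 liver genes lower in HOM against WT and 6 in HET against WT. All 10 were below 0 in both, with edgeR medians of −5.10 and −4.11 on the log2 scale, and their part in the values of the members was not tested. The WT libraries differed widely in these genes. WT replicates 5, 1 and 2 had liver sums of 31002, 3525 and 962 CPM. WT replicates 3 and 4, at 62.5 and 202 CPM, lay in the range of the HOM libraries. Keratinocyte genes summed to 11866 to 16790 CPM in HOM, 8715 to 17406 CPM in HET and 6125 to 24346 CPM in WT skin. Skeletal muscle genes summed to 2754 to 29563 CPM in HOM, 4777 to 28913 CPM in HET and 1521 to 40190 CPM in WT skin. The highest muscle sum was in WT replicate 5, and the highest of the HOM libraries in HOM replicate 2. Red blood cell genes summed to 61.5 to 1167 CPM in HOM, 66.3 to 986 CPM in HET and 54.0 to 2529 CPM in WT skin. The part of muscle and of red blood cells was not tested. The lateral line neuromasts of the skin contain ionocytes of their own, and the 15 genes listed for neuromast hair and support cells summed to 32.9 to 35.8 CPM in HOM, 33.4 to 80.6 CPM in HET and 35.3 to 48.8 CPM in WT skin. Most of that came from MYO6 (ENSDARG00000044016), with 1644, 2419 and 3113 counts over the HOM, HET and WT libraries, and s100t, with 306, 1725 and 1217. ATOH1 had 13, 19 and 18 counts, so the sum mainly follows MYO6 and s100t. In HET against WT, 8 of the 9 neuromast genes tested were above 0 (median 0.36), beside 45.6% of all genes (median −0.04). Without TMM scaling 5 of 9 were above 0 (median 0.11), beside a median of −0.29 over all genes. The part of neuromasts in the higher gcm2 and foxi3b was not tested. Mucous and club cell genes summed to 48.5 to 204.5 CPM in HOM, 149.6 to 314.1 CPM in HET and 68.4 to 248.7 CPM in WT skin. In HET against WT all 5 of these genes tested were above 0 (median 0.74), or 4 of 5 without TMM scaling (median 0.46). A HET median above 0 was thus not particular to the neuromast list. The part of mucous and club cells was not tested. Kidney tubule genes summed to 171.8 to 208.7 CPM in HOM, 214.3 to 275.8 CPM in HET and 178.4 to 242.2 CPM in WT skin. Most of that came from SLC20A1 (ENSDARG00000010641), with 13104, 23170 and 24048 counts over the HOM, HET and WT libraries. SLC12A1 had 3, 5 and 5 counts and LRP2 20, 40 and 67, so the sum mainly follows SLC20A1. Of the 4 kidney genes tested, 2 were above 0 and 2 below in HET against WT, and their part was not tested either. gcm2 is also a parathyroid regulator. Of the parathyroid genes, pth1a and CASR had 0 counts in all 13 libraries. pth1b had 95 counts over the HOM, 361 over the HET and 282 over the WT libraries. The list, all of it from pth1b, summed to 0.605 to 2.67 CPM in HOM, 0.0595 to 7.50 CPM in HET and 0.450 to 4.63 CPM in WT skin. The part of parathyroid was not tested.

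Across libraries, several members varied together. The members were chosen on differences between HOM and WT, which by itself can make genes of the set correlate over these libraries, so the values below are descriptions with no test. They are of log2(CPM + 0.5) over the 13 libraries, which also share depth and scaling. The plan kept correlations to members above a count minimum, which 4 met: rhcg, foxi3b, trpv6 and ca2. Pairs with gcm2, foxi3a or ca15a fall outside that plan and rest on few counts. foxi3a had at most 10 counts and 0.396 CPM in any library, under the 0.5 added before the logarithm. The closest pair was gcm2 and foxi3b (r = 0.847, rho = 0.802), followed by foxi3a and trpv6 (r = 0.775, rho = 0.797), foxi3b and trpv6 (r = 0.763, rho = 0.775) and ca15a and rhcg (r = 0.761, rho = 0.635). For foxi3b and trpv6, r of the deviations from genotype means was 0.641, and r without the 2 libraries farthest from the median of foxi3b was 0.628. ca2 ran opposite to trpv6 (r = −0.565, rho = −0.582).

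**Figure D4:**
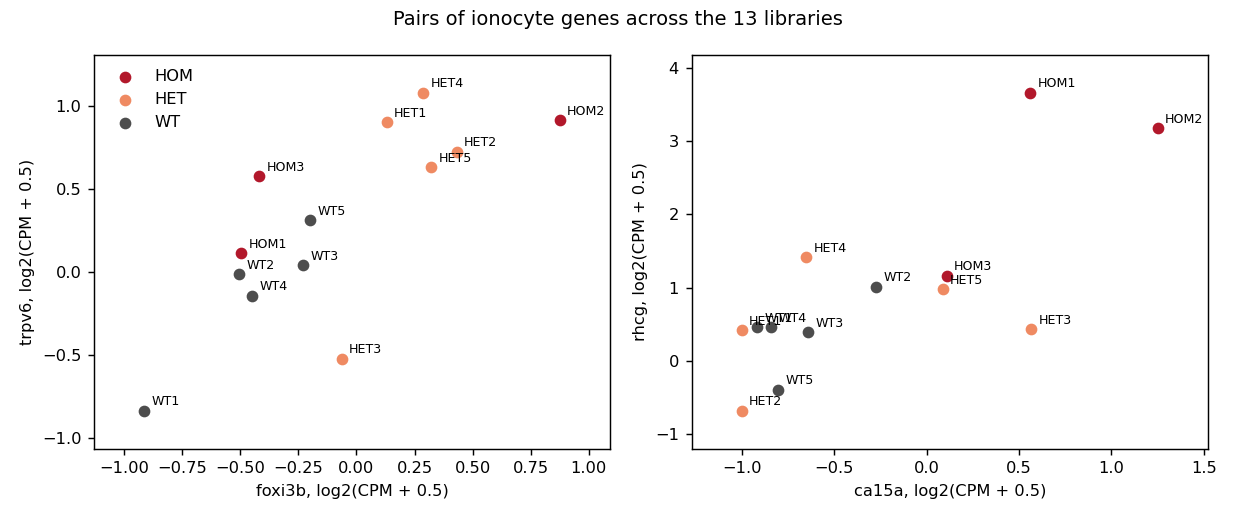
Each library's log2(CPM + 0.5) of trpv6 against foxi3b (left) and of rhcg against ca15a (right), coloured by genotype. ca15a was under the planned count minimum for correlations. WT replicate 1 was lowest and HET replicate 4 and HOM replicate 2 were among the highest in the first pair, and HOM replicates 1 and 2 stood apart from all other libraries in the second.

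The 3 genes with a symbol whose levels were most like each member's over the 13 libraries were ranked among 18000. As the highest of so many values, these r are descriptions with no test. For rhcg they were METRN, a secreted neurotrophic factor (r = 0.778), fam83fb (r = 0.766) and ca15a (r = 0.761). The last is a member, chosen like rhcg on differences between HOM and WT in these libraries. For gcm2 they were arhgap36 (r = 0.859), cd22 (r = 0.854) and si:ch73-264i18.3 (r = 0.853). For ca15a they were ENO1, a glycolytic enzyme (r = 0.855), the long noncoding RNA ENSDARG00000096862 (r = 0.801) and c2cd4a (r = 0.775). For foxi3b they were knop1 (r = 0.883), CLUAP1, a ciliary transport protein (r = 0.881), and RRAS2, a small GTPase (r = 0.877). For trpv6 they were PRMT7, an arginine methyltransferase (r = 0.837), si:ch211-229d2.5 (r = 0.834) and DRG1 (r = 0.817). For ca2 they were ITCH, a ubiquitin ligase (r = 0.903), VPS72 (r = 0.876) and kdf1b (r = 0.873).

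The wider ionocyte lists held 96 gene IDs. DLD (ENSDARG00000008785) was taken for the Notch ligand dld by symbol without regard to case, so its identity is uncertain. It stood at −0.09 ± 0.41 in HOM against WT and 0.30 ± 0.35 in HET against WT. Of the IDs, 73 were tested, DLD among them. None of them was called in any comparison by edgeR, which called 0% of all genes, or by DESeq2, which called 0.235% of genes for HOM against WT, 0.798% for HET against WT and 0.00379% for HOM against HET. An unadjusted edgeR p under 0.05 was reached by 1, 1 and 2 of the 73, against 2.73%, 5.5% and 2.74% of all genes. In HOM against WT 38 of the 73 were above 0 with a median log2 fold change of 0.01, against 43.2% and −0.05 over all genes. In HET against WT 40 were above 0 with a median of 0.02, against 45.6% and −0.04 over all genes. Without TMM scaling the medians of the lists were −0.18 and −0.24, beside −0.21 and −0.29 over all genes. Counts above 0 without TMM scaling, given below for single lists, include this shift of all genes.

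Of the 10 genes of HR cells and acid secretion tested, 7 were above 0 in HOM against WT (median 0.11) and 5 in HET against WT (median −0.11), and without TMM scaling these counts were 4 and 3. The list shares the copies of ATP6V1A and ATP6V0A1 with the V-ATPase list, SLC4A1 with the red blood cell markers and RHBG with the Rh family list. Its counts are therefore not independent of theirs. ca15b, a carbonic anhydrase of the same group, had 0.0698, 0.0989 and 0.0828 CPM in HOM skin, 0.297, 1.58, 0.131, 0.824 and 0.863 CPM in HET skin and 0.0906, 0.286, 0.212, 0 and 0.185 CPM in WT skin. Its HET against WT log2 fold change was 2.19 ± 0.69 (unadjusted p = 0.00777, edgeR adjusted p = 0.794), with 4 of 5 HET libraries above every WT library. ca15c had 13.3, 1.43 and 2.90 CPM in HOM skin, 0.0595, 0.121, 8.03, 2.06 and 1.65 CPM in HET skin and 0.181, 3.76, 0.353, 0.0581 and 0.111 CPM in WT skin, with groups that overlapped. The sodium-proton exchanger slc9a3.2, which works beside rhcg in HR cells, had a HET against WT log2 fold change of 1.04 ± 0.56 (adjusted p = 0.957), and the basolateral ammonia channel RHBG a HOM against WT value of 0.81 ± 0.40. The lowest value of the list, named after its values were seen, was that of ceacam1, whose HOM against WT value was −1.09 ± 1.67 and HET against WT value −2.67 ± 1.51, with WT libraries between 0.0302 and 14.8 CPM.

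Of the 7 genes of calcium uptake tested, 2 were above 0 in HOM against WT (median −0.24) and 3 in HET against WT (median −0.12). STC1 (ENSDARG00000003303), one of 2 genes with that symbol and encoding stanniocalcin, a hormone that lowers calcium uptake in fish, had 0.349, 0.198 and 0.579 CPM in HOM skin, 0.535, 0.243, 0.131, 0.0687 and 0.338 CPM in HET skin and 0.211, 0.0817, 0.0706, 0.0581 and 0.0740 CPM in WT skin. The HOM against WT log2 fold change was 1.77 ± 0.66 and the HET against WT value 1.29 ± 0.60 (adjusted p = 0.914), on at most 15 counts a library. The IGF-binding protein gene IGFBP5 (ENSDARG00000025348) had a HOM against WT value of −0.70 ± 0.47, and the protease gene PAPPA (ENSDARG00000101090), whose product cuts IGF-binding proteins, a HET against WT value of −0.84 ± 0.85 (adjusted p = 0.978).

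Of the 22 subunits of the V-ATPase, the proton pump that HR cells use, 17 were above 0 in HOM against WT and 15 in HET against WT, with medians of 0.10 and 0.02, beside 43.2% and 45.6% of all genes. Without TMM scaling 9 and 1 of the 22 were above 0, with medians of −0.02 and −0.23 beside −0.21 and −0.29 over all genes. The sign of many of them thus depended on the scaling, which shifted all genes. Both medians stayed above those of all genes. The 2 subunits named for each comparison were ATP6V1B2 (ENSDARG00000013443) and atp6v1e1b at 0.26 ± 0.21 and 0.25 ± 0.20 in HOM against WT, and ATP6V0A1 (ENSDARG00000015174) and ATP6V1C1 (ENSDARG00000035880) at −1.30 ± 0.78 and 0.38 ± 0.23 in HET against WT. Counting the uncertain DLD, 5 of the 14 ionocyte fate regulators tested were above 0 in HOM against WT and 6 in HET against WT. They included GATA2 (1.12 ± 0.66) and the Notch ligand jag1a (−0.69 ± 0.40) in HOM against WT, and the Notch ligand jag2b (0.56 ± 0.28) and the receptor NOTCH3 (−0.71 ± 0.42) in HET against WT.

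The remaining lists held few tested genes. Of 5 genes of NCC cells, which take up sodium and chloride, 2 were above 0 in HOM against WT and 3 in HET against WT, among them the anion exchanger SLC26A4 at −1.71 ± 1.27 in HOM against WT and the chloride channel CFTR at 0.48 ± 0.68 in HET against WT. The single potassium channel gene tested, KCNJ1 (ENSDARG00000091232), stood at 0.12 ± 0.51 in HOM against WT and 0.55 ± 0.44 in HET against WT. Of 9 sodium pump and water channel genes, 5 and 7 were above 0, or 4 and 4 without TMM scaling, and the water channel AQP3 (ENSDARG00000003808) stood at −0.60 ± 0.56 in HET against WT. Of 9 other carbonic anhydrases 2 and 4 were above 0, and of the 3 other Rh family genes 2 and 0.

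**Figure D5:**
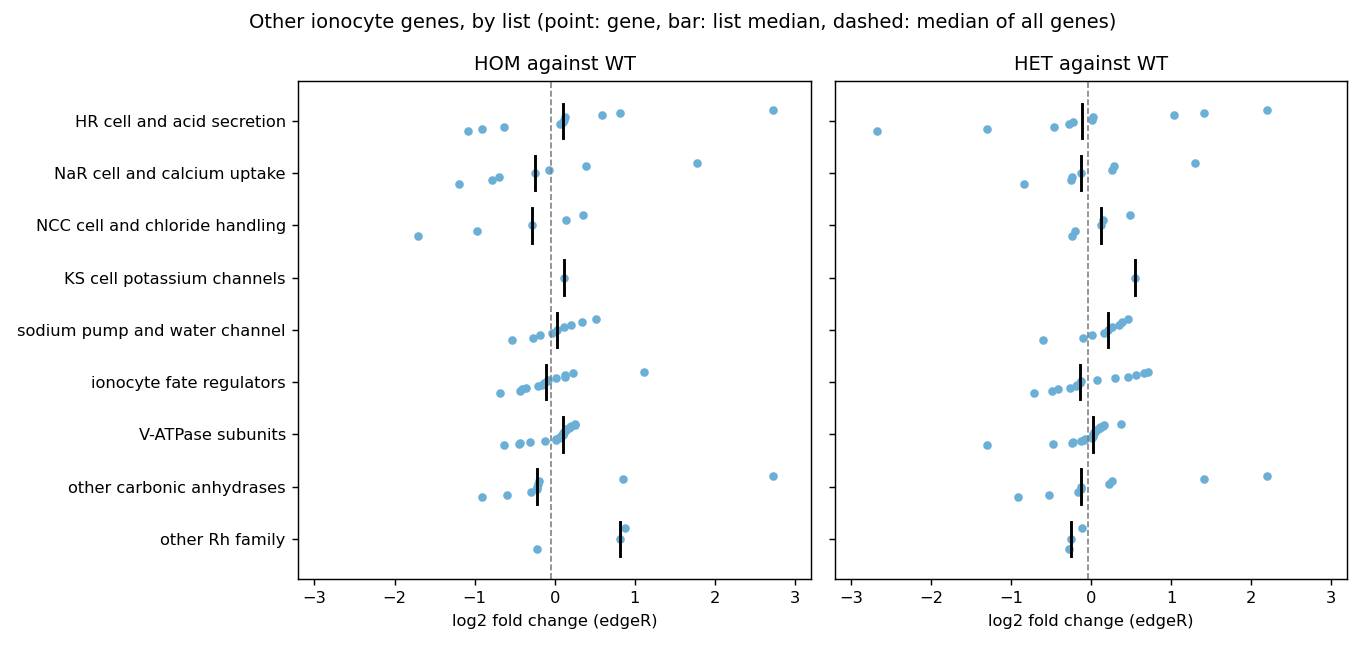
Log2 fold changes of the other ionocyte genes tested, by list, for HOM against WT (left) and HET against WT (right), with each list's median as a bar and the median of all genes as a dashed line. Most lists centred near 0. The highest values came from ca15c (left) and ca15b (right), which stand in both the HR cell and the carbonic anhydrase list, and the lowest value on the right was that of ceacam1.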

How the data were processed

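The deposited counts are whole reads per gene, which the authors counted from an unstranded kit. The submitters' processing notes name bcl2fastq 1.8.4, STAR 2.4.1d, featureCounts 1.4.6-p4 and GRCz10. The study's methods name a transcript-based quantification, so the path behind this table is not certain. A second deposited table of RPKM was treated as a score, since the library totals behind it had been recycled across libraries. The gene lengths implied by both tables were compared over 3854 genes with more than 200 counts in every library. Their median coefficient of variation was 32.3% with each library's own total and 0.0026% with recycled totals. Under that recycling only 7.69% of all values in the table met the library's own total. The RPKM table served only for gene lengths, and RPKM was recomputed from counts. The number of value columns that matched no sample was 0.

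Counts were tested with edgeR 4.0.16 (TMM, filterByExpr with a minimum count of 10, robust quasi-likelihood, all 13 libraries in 1 fit, two-sided, Benjamini-Hochberg over 19141 genes, threshold 0.05) in R 4.3.3. Of the 7 members 6 passed the filter. A count of 0 allows up to 3 counts, which covers counting error only. Symbols, found for 81.8% of IDs, are partly shared by paralogs. Members and lists were chosen with earlier results of these data known. Beyond members, genes were named where called or by the 3 highest correlations. Others were named where their unadjusted p was among the 2 smallest of their list in HOM against WT or HET against WT. Of marker lists only OTOF is named by that rule, the rest being summed. Some of each ionocyte list are given only in its counts. CA6, cahz, DLD, the other RHCG genes and the markers SLC20A1, SLC12A1, LRP2, MYO6, s100t and ATOH1 were named after their values were seen. In simulated data of 18801 genes, 200 were given changes of 2- to 16-fold. The HET against WT test recovered 8% of 2-fold, 74% of 4-fold and 88% of 16-fold changes. So many planted changes ease the adjusted p threshold, and the real comparison had 0 calls. The recovery can therefore overstate that in the real data. Recovery at levels as low as those of gcm2, foxi3b, ca15a and trpv6 was not tested. A planned permutation test of correlations between members is not reported, since the members were chosen on the same libraries. Alternatives were DESeq2 1.42.0, limma 3.58.1 on log2(RPKM + 0.1) and log2(RPKM + 1), other scalings and filters, 2-group fits and leaving out libraries.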

Additional observations from a re-analysis of the deposited data

Results flagged for a closer look

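HET replicate 3 had 0 CPM of foxi3a, where the other 4 HET libraries had 0.263 to 0.357 CPM. The gap to its nearest neighbour was 0.736 of the group's range, and it was the only such value in 14 groups of 5 libraries looked at, of which chance gives about 1 in 20. At this depth 0 counts allow up to 0.196 CPM. The same library had the lowest trpv6 (0.196 CPM), foxi3b (0.457 CPM) and gcm2 (0.392 CPM) of the HET group, and the highest ca15a (0.980 CPM). Its mitochondrial share (54.3%) was the highest and its TMM factor (0.812) the lowest of that group, and their part was not tested.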

How the results depend on the processing

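DESeq2 called 43 genes in HOM against WT (4 higher, 39 lower), 138 in HET against WT (28 higher, 110 lower) and 1 in HOM against HET, where edgeR called 0 in each with 522, 1052 and 525 genes at an unadjusted p under 0.05. The cause was not tested. Leaving out any library gave 0 calls in each comparison. The small rhcg difference of HET against WT was −0.081 and −4.05e-05 with limma at pseudocounts of 0.1 and 1, and ran between −0.063 (without HET replicate 4) and 0.63 over fits that left out 1 library. The correlation of rhcg with foxi3b became −0.137 by rank, and in deviations from genotype means that with trpv6 became −0.0604 and that with ca2 0.00960. Over leave-one-out fits of HOM against WT, the log2 fold change ran between 2.62 and 3.59 for rhcg, 2.61 and 3.87 for ca15a, 0.67 and 3.59 for gcm2, −0.07 and 1.82 for foxi3b, 0.79 and 1.47 for trpv6, and −2.22 and −0.71 for ca2. In HOM against HET these fits ran between −1.25 and 1.35 for gcm2, −1.57 and 0.32 for foxi3b, −0.49 and 0.19 for trpv6 and −1.53 and 0.17 for ca2, and so changed sign. In HET against WT it ran between 1.64 and 2.70 for gcm2, 1.18 and 1.72 for foxi3b, 0.97 and 1.55 for trpv6, 0.58 and 2.04 for ca15a, and −1.24 and −0.45 for ca2. limma on log2(RPKM + pseudocount), which shrinks changes of low genes, gave HOM against WT values at pseudocounts of 0.1 and 1 of 1.05 and 0.28 for gcm2, 2.004 and 0.59 for ca15a, 0.54 and 0.15 for foxi3b and 0.70 and 0.17 for trpv6, and 1.44 for rhcg at 1. In HET against WT its lowest were 0.18 for gcm2, 0.097 for ca15a, 0.24 for foxi3b and 0.21 for trpv6. No paired analysis was possible because the labels carry no replicate numbers shared between genotypes. foxi3a, foxi3b, gcm2, ca15a and trpv6 had at most 47 counts in any library, which limits the differences these depths can show.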

Other observations

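The neuromast gene OTOF, which encodes otoferlin of hair cell synapses, has 2 copies in the table. ENSDARG00000020581 had 2.26, 0.742 and 0.414 CPM in HOM skin, 4.40, 2.85, 0.523, 1.96 and 2.51 CPM in HET skin and 0.574, 1.84, 0.706, 0.697 and 0.851 CPM in WT skin. Its HET against WT log2 fold change was 1.39 ± 0.57 (edgeR adjusted p = 0.834), and that of the copy ENSDARG00000030832 was 0.83 ± 0.40 (adjusted p = 0.915). HET replicate 3, lowest of its group in foxi3b and trpv6, was also lowest of its group in the first copy. It was not lowest in the second copy, which had 2.38, 1.82, 2.81, 1.51 and 4.05 CPM in the HET libraries.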
